A study of Arabidopsis thaliana with 6 samples.

Results

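The genes described here encode RALF-like peptides (RALF stands for rapid alkalinization factor). Members were all probe sets with a single annotated gene whose symbol is RALFL followed by a number, and there were 11 of them among 22746 probe sets without controls. They were RALFL18 (AT2G33130), RALFL22 (AT3G05490), RALFL24 (AT3G23805), RALFL25 (AT3G25165), RALFL26 (AT3G25170), RALFL27 (AT3G29780), RALFL28 (AT4G11510), RALFL31 (AT4G13950), RALFL32 (AT4G14010), RALFL33 (AT4G15800) and RALFL34 (AT5G67070). The RefSeq annotation of TAIR10.1 holds 34 genes of the family, and the other 23 are not analysed here. RALFL25 and RALFL26 lie close together, with 1 annotated gene between them, and 12 genes separate RALFL31 from RALFL32. Members were chosen by symbol, and the rule itself used no measured value, but the family was selected on the differences between the 3 groups of these same arrays, which were already known. All counts and values for it, including which genes passed the fit across all probe sets, are therefore given as a description and not as a test of the family.

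The study exposed dark-grown seedlings of Arabidopsis thaliana, ecotype Columbia glabra, to 3 treatments of 6 h: anoxia with 90 mM sucrose, anoxia without sucrose, and air without sucrose. All seedlings had first grown for 4 days in darkness at 23 °C in Murashige and Skoog medium to which no sucrose had been added. Each group had 2 Affymetrix arrays, 1 from experiment 1 and 1 from experiment 2. An array carried total RNA pooled from 4 seedling cultures, so that cell types and organs were mixed. No group received sucrose in air, and each transcript was read by several short probes, together called a probe set.

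RALF peptides are small, cysteine-rich and secreted. Many are cut from a longer precursor and are perceived by receptor kinases of the FERONIA class together with lipid-anchored co-receptors. Leucine-rich repeat extensins (LRX) hold some of them in the cell wall. RALF perception inhibits the proton pump of the plasma membrane, raises the pH outside the cell and restrains cell expansion, and in seedlings it is best known from the growth of roots, root hairs and hypocotyls. RALFL33 and RALFL22 are close relatives of RALF23, whose precursor is cut by the subtilase S1P, and RALFL22 takes part in building the wall of root hairs. RALFL34 acts in lateral root initiation and is a ligand of the receptor kinase THESEUS1 (THE1). RALFL25 and RALFL26 are known from pollen.

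The deposited values are signal intensities, given below as "signal". Differences and means are on the scale log2(signal + 16), with the median of every array set to 0, which understates changes of dim genes. The arrays differed in brightness, with median signals between 21.2 and 50.6. The sucrose array of experiment 1 was the dimmest, and its 3' over 5' ratio for the GAPDH control was 7.61, against 1.38 to 2.42 on the other 5 arrays. For the actin control, 1 pair of probe sets gave 21.6 on that array against 1.70 to 4.24, and another pair 20.3 against 8.36 to 18.5. The upper end of each of these ranges was the air array of experiment 1. A control for 25S ribosomal RNA read 848.2 (sucrose), 1211.3 (anoxia) and 167.5 (air) in experiment 1. In experiment 2 it read 8.2, 4.2 and 12.5. On the sucrose array of experiment 1 a signal of 0 lies at -1.22 on the centred scale, against -2.06 to -1.55 elsewhere, so dim genes come out higher there. Of 6 low-oxygen check genes, among them CML38 and PDC2, 6 were higher under anoxia than in air in both experiments. The share of all probe sets was 32.8%. The median log2 difference of the check genes was 4.11. Their list was chosen with earlier results of these data known, so the count is a description and not a test of the treatment. Of the marker genes, the pollen histone gene HTR10 was the only one of 7 pollen markers matched, and its signal lay between 0.7 and 9.7. PORB, a protochlorophyllide reductase of dark-grown plastids, read between 522.3 and 3485.8, and the antenna protein gene LHCB4.1, listed as a marker of green leaves, between 1498.6 and 5113.5. A lower signal in pooled RNA cannot tell fewer cells of a type from less RNA per cell.

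**Figure D1:**
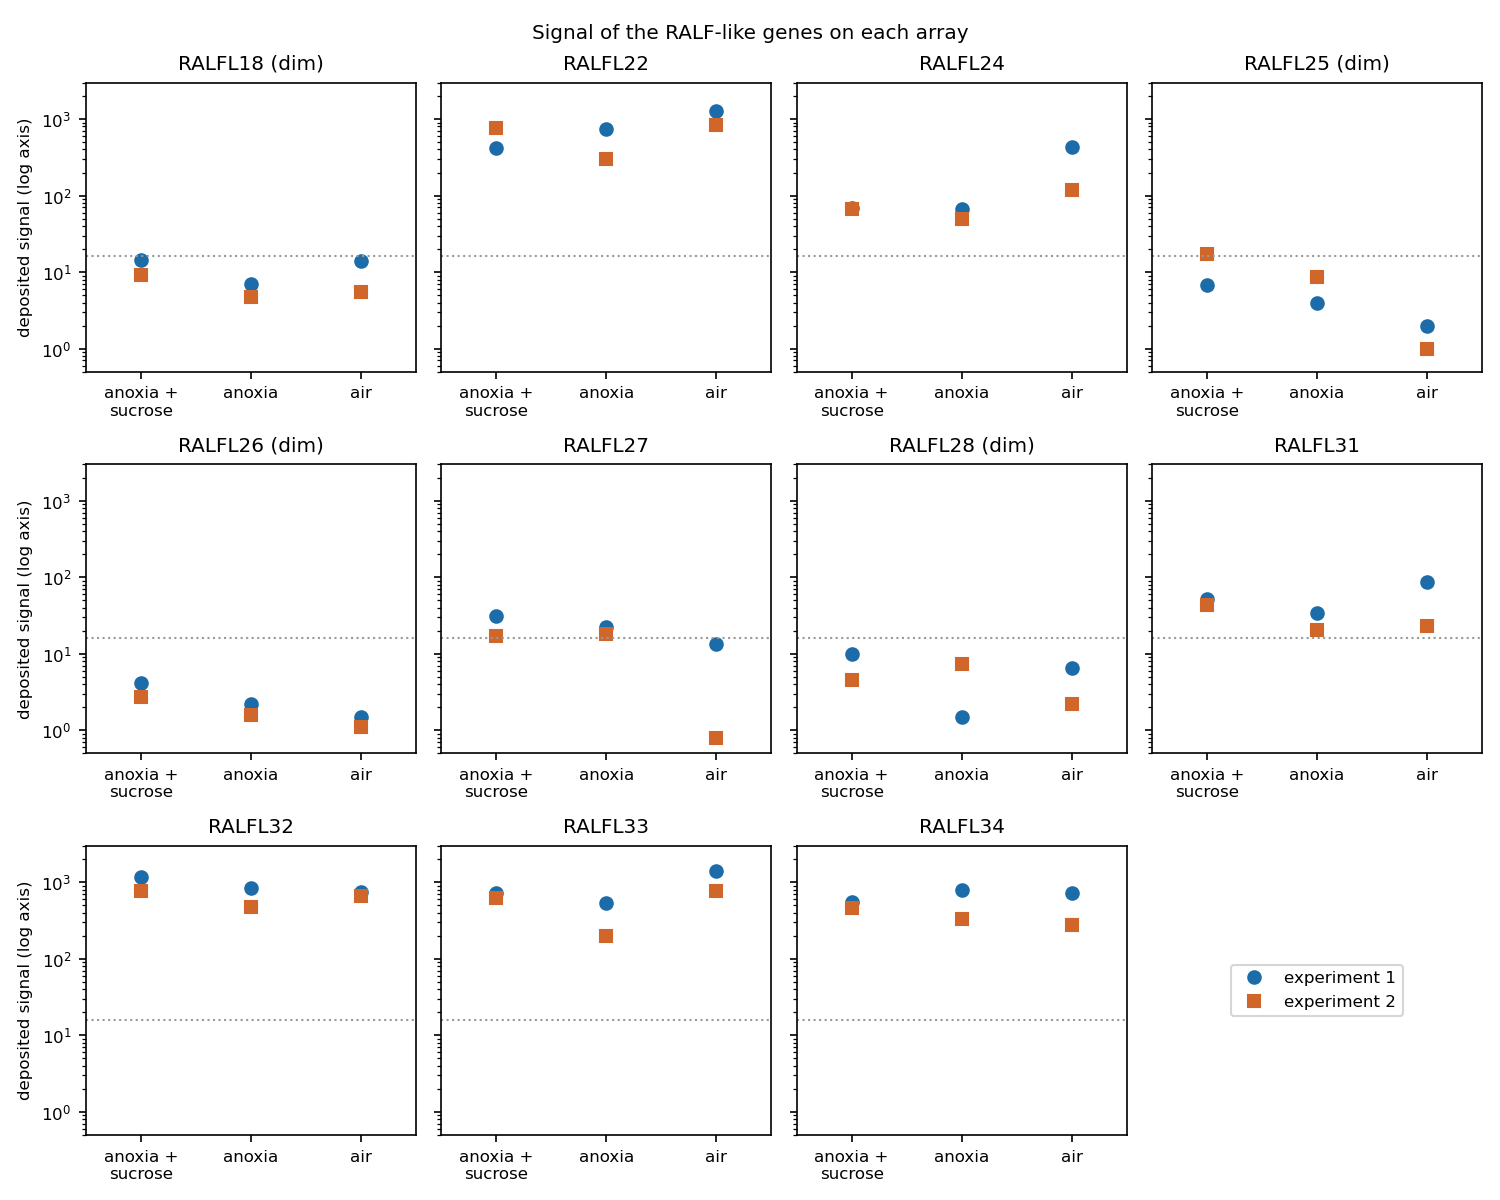
Deposited signal (log axis) of each of the 11 RALF-like genes on every array, by group, with circles for experiment 1, squares for experiment 2 and a dotted line at 16, the constant added before taking logs. RALFL24, RALFL33 and RALFL22 have lower signals under anoxia than in air, while the 4 genes marked dim read from 1 to 17.3.

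Members differed in whether they were measurable in these seedlings. The filter on low values, which kept probe sets from the 30th percentile of mean level upwards, left 7 members: RALFL22, RALFL24, RALFL27, RALFL31, RALFL32, RALFL33 and RALFL34. RALFL18, RALFL25, RALFL26 and RALFL28 did not pass. Of their 24 signals, 1 was at or above 16, namely 17.3 for RALFL25 on the sucrose array of experiment 2, and the lowest was 1. The pollen genes RALFL25 and RALFL26 were thus both among the dim members, although levels of different probe sets cannot be set against each other. RALFL22, RALFL24, RALFL31, RALFL32, RALFL33 and RALFL34 read above 16 on all 6 arrays, and RALFL27 on 4 of them.

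The comparison of anoxia with air asked which members responded to 6 h without oxygen in seedlings without added sugar. RALFL24, RALFL33 and RALFL22 had lower signals under anoxia in both experiments, by 2.17-fold to 3.42-fold on average, while RALFL34 and RALFL32 differed by less than 1 SE of the fit. None of the 7 tested members passed limma at an adjusted p of 0.05, where 0.232% of all tested probe sets did. An unadjusted p under 0.05 was seen for 2 of the 7, RALFL24 and RALFL33, and for 6% of all tested probe sets. With the experiment number as a block, 2 of the 7 passed, RALFL24 and RALFL33, both lower, against 2.54% of all probe sets in either direction and 1.58% lower.

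RALFL24 differed most on this scale. RALFL33 was further from 0 than RALFL24 with a pseudocount of 64 (-1.49 against -1.33), without the air array of experiment 1 (-1.43 against -1.11) and without the anoxia array of experiment 1 (-2.13 against -1.77), and with a pseudocount of 1 the dim RALFL27 was at 2.04 beside -2.00 for RALFL24. The signal of RALFL24 was 66.0 and 48.7 under anoxia in experiments 1 and 2, against 436.0 and 119.5 in air. Both anoxia arrays lay below both air arrays, and the air arrays differed from each other by more than the anoxia arrays did. On the centred scale it averaged 0.43 ± 0.01 under anoxia and 2.20 ± 0.94 in air (SD, n = 2 each). The log2 difference was -1.77 ± 0.51 (SE, limma adjusted p = 0.365), a 3.42-fold lower value, with -2.44 in experiment 1 and -1.10 in experiment 2. The limma fit with the block gave adjusted p = 0.0102, but 0.0524 when the sucrose array of experiment 1 was also left out.

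RALFL33, the relative of RALF23, read 532.0 and 199.7 under anoxia, against 1406.6 and 780.7 in air, again without overlap between the groups. Its centred mean was 2.66 ± 0.70 under anoxia and 4.30 ± 0.30 in air (SD, n = 2 each). The log2 difference was -1.64 ± 0.58 (SE, limma adjusted p = 0.603), or 3.11-fold lower, with -1.36 and -1.92 in experiments 1 and 2. With the block limma gave adjusted p = 0.0438, and 0.0602 without the sucrose array of experiment 1. The order of the experiments was thus the reverse of that for RALFL24, whose larger difference was in experiment 1.

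RALFL22, the other relative of RALF23, read 745.5 and 296.8 under anoxia, against 1271.8 and 842.1 in air. The groups did not overlap, but the anoxia array of experiment 1 came close to the air array of experiment 2 in signal. The log2 difference was -1.11 ± 0.52 (SE), or 2.17-fold lower, with -0.74 and -1.49 by experiment. It did not pass in limma with or without the block (adjusted p = 0.258 and 0.869).

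Of the remaining tested members, RALFL31 had 34.6 and 20.2 under anoxia, against 86.7 and 22.9 in air. Nearly all of its log2 difference of -0.57 ± 0.44 (SE) came from experiment 1, with -1.0 there and -0.14 in experiment 2. RALFL32 had 845.3 and 473.3 under anoxia, against 753.7 and 658.2 in air, and its difference of -0.16 ± 0.58 (SE) changed sign between experiments (0.18 and -0.50). In signal the anoxia arrays of RALFL32 enclosed the air arrays. On the centred scale its air array of experiment 2 (3.85) lay above both anoxia arrays (3.81 and 3.35). RALFL34, the ligand of THE1, had 788.7 and 333.4 under anoxia, against 731.5 and 278.4 in air. Its difference of 0.17 ± 0.60 (SE) was small in each experiment, at 0.13 and 0.21, while its experiments differed by 0.85 under anoxia and by 0.93 in air. RALFL27 was the only tested member with higher signals and no overlap, at 22.6 and 17.9 under anoxia, against 13.3 and 0.8 in air. Both of its air signals lay below 16, so its log2 difference of 0.70 ± 0.42 (SE) is a value for a dim gene and moved between 0.25 and 2.04 with pseudocounts of 64 and 1.

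Over all 11 members the family showed no common direction between anoxia and air. The median log2 difference was -0.16, with -0.35 in experiment 1 and -0.09 in experiment 2, beside 0.05 over all 22746 probe sets. Members below 0 numbered 7 and members above 0 numbered 4, where 42.8% of all probe sets lay below 0 and 57.2% above. On the centred scale groups did not overlap and were lower under anoxia for 5 members (RALFL18, RALFL22, RALFL24, RALFL31 and RALFL33), against 13.1% of all probe sets. They were higher without overlap for 1 member, RALFL27, against 17%. Among these 5, RALFL31 overlapped in signal before centring, as did RALFL18, which read below 16 on all arrays, with 7.0 and 4.7 under anoxia and 13.9 and 5.5 in air. The same 5 were lower in both experiments, as were 23.1% of all probe sets, and 4 were higher in both (RALFL25, RALFL26, RALFL27 and RALFL34), as were 32.8%. The signs of all 7 tested members were the same with pseudocounts of 1 and 64, quantile normalization and scaling to a common trimmed mean.

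Of 4 listed root hair genes 2 had a matched probe set, and neither passed. EXPA18, which was tested, read 22.1 and 2.1 under anoxia, against 47 and 19.7 in air, with a limma adjusted p of 0.828, or 0.180 with the block. EXPA7 was too dim to be tested and read 2.4 and 2.8 under anoxia, against 17.8 and 2.7 in air, so that its signals in experiment 2 were nearly equal. Together EXPA7 and EXPA18 had a summed signal of 24.5 and 4.9 under anoxia, against 64.8 and 22.4 in air, and 29.6 and 23.8 with sucrose. Neither was at 0 on any array. The part of cell composition in the values of RALFL22 or any other member was not tested.

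**Figure D2:**
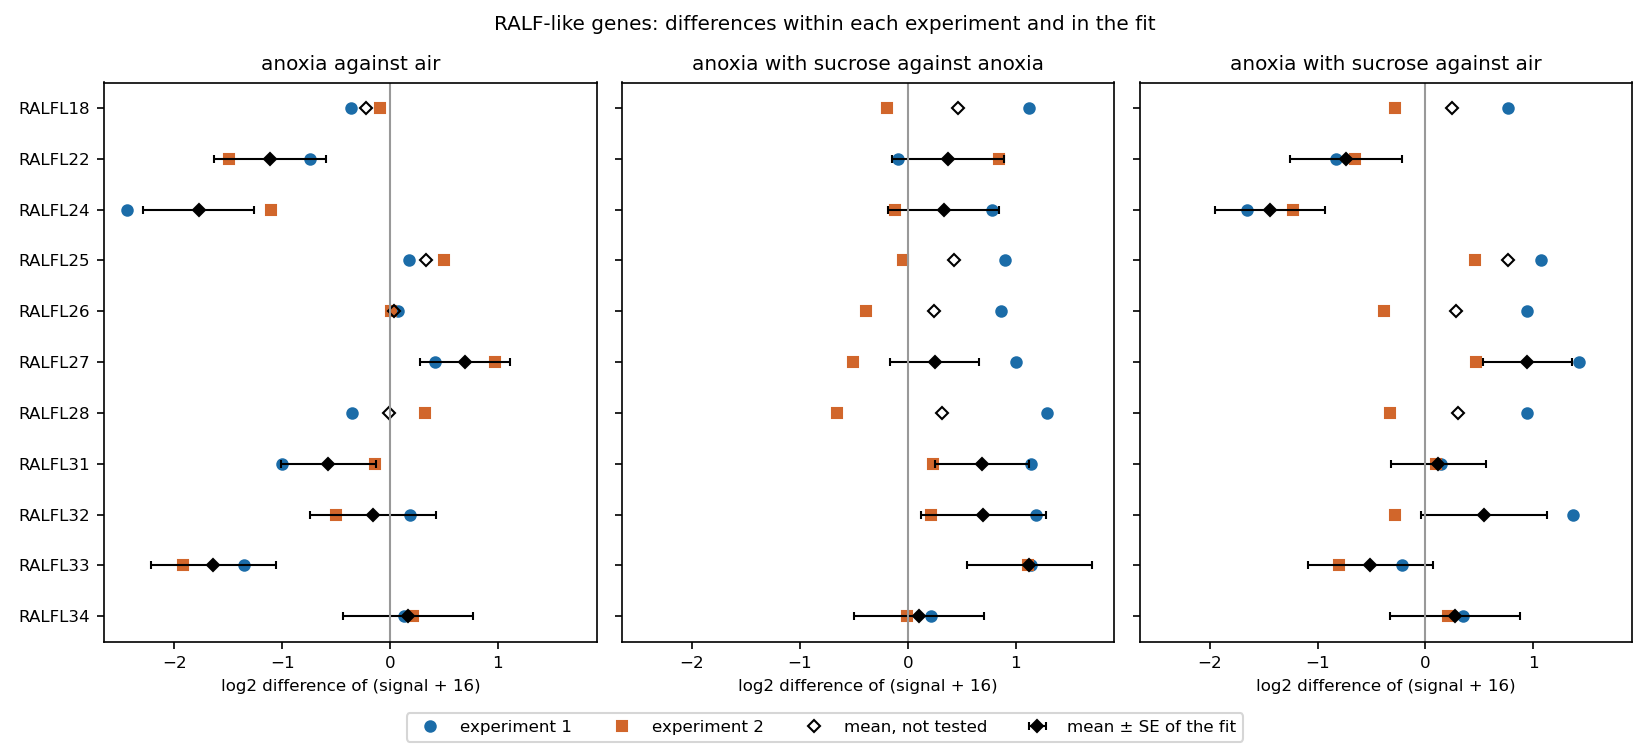
Differences of log2(signal + 16), centred per array, for the 11 members in the 3 comparisons, with circles for experiment 1, squares for experiment 2 and diamonds for the mean (bars, SE of the fit, filled where tested). Between anoxia and air RALFL24, RALFL33 and RALFL22 lie left of 0 in both experiments, and with sucrose against anoxia RALFL33 is at 1.14 and 1.12, while most others are right of 0 in experiment 1 alone.

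The comparison of anoxia with sucrose against anoxia asked what 90 mM sucrose did to these transcripts in the absence of oxygen. RALFL33 averaged 2.19-fold higher with sucrose, by a similar amount in both experiments on the centred scale. In signal before centring it was 1.35-fold higher in experiment 1 and 3.17-fold higher in experiment 2. The experiment 1 value thus depends on the centring of the dimmest array. The experiment 2 ratio in turn sets the brightest array (median signal 50.6) against one with a median of 32.0. The mean log2 difference was 1.02 with quantile normalization and 1.11 with trimmed mean scaling. None of the 7 tested members passed in limma, with or without the block, against 0% and 0.0188% of all tested probe sets. An unadjusted p under 0.05 was seen for 0 of 7 without the block, against 1.01% of all tested probe sets, and for 2 of 7 with it, against 3.5%.

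For RALFL33 the signals were 717.3 and 633.0 with sucrose, against 532.0 and 199.7 without. Both arrays with sucrose lay above both without it, by 1.14 in experiment 1 and 1.12 in experiment 2 on the centred log2 scale. The log2 difference was 1.13 ± 0.58 (SE), and limma's adjusted p was 1, or 0.999 with the block. The level with sucrose (3.79 ± 0.72, SD, n = 2) lay between that under anoxia without sucrose (2.66 ± 0.70) and that in air (4.30 ± 0.30). The log2 difference was 0.62 without the sucrose array of experiment 1, a comparison of 1 sucrose array with the anoxia arrays of both experiments.

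RALFL31 also did not overlap, with 51.9 and 43.1 with sucrose, against 34.6 and 20.2 without, and a log2 difference of 0.69 ± 0.44 (SE). Its value was 1.14 in experiment 1 and 0.23 in experiment 2. RALFL32 read 1175.8 and 772.6 with sucrose, against 845.3 and 473.3 without, and was at 0.70 ± 0.58 (SE), with 1.19 and 0.22 by experiment. On the centred scale most of the difference for RALFL31 and RALFL32 therefore came from experiment 1. In signal before centring the rise was larger in experiment 2 for both genes. RALFL31 was 1.5-fold higher in experiment 1 and 2.13-fold in experiment 2, and RALFL32 was 1.39-fold and 1.63-fold higher. The larger experiment 1 values thus depend on the centring of the dimmest array, on which the 3' over 5' ratios were also high. The larger signal ratios of experiment 2 likewise hold the difference in median signal between its sucrose array (50.6) and its anoxia array (32.0). With quantile normalization and trimmed mean scaling the mean log2 difference was 0.75 and 0.67 for RALFL31, and 0.52 and 0.68 for RALFL32. The part of RNA quality in these values was not tested.

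RALFL22 ran the other way between experiments, at -0.09 in experiment 1 and 0.84 in experiment 2. Its signals were 418.4 and 762.5 with sucrose, against 745.5 and 296.8 without, so the groups overlapped. RALFL24 read 69.8 and 66.5 with sucrose, against 66.0 and 48.7 without, a log2 difference of 0.33 ± 0.51 (SE). Its signals with sucrose lay below both air signals. RALFL34 read 552.3 and 467.5 with sucrose, against 788.7 and 333.4 without (0.11 ± 0.60, SE), and RALFL27 read 31.0 and 17.1, against 22.6 and 17.9 (0.25 ± 0.42, SE). For each of these 3 genes the groups overlapped on the centred scale.

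All 11 members had a mean difference above 0 with sucrose, where 56.1% of all probe sets did, and the median was 0.38 beside 0.05 over all probe sets. This count rested on experiment 1, where 10 members lay above 0, against 4 in experiment 2 (RALFL22, RALFL31, RALFL32 and RALFL33). The medians were 1.00 and -0.04 by experiment. A gene with a signal of 0 on every array would itself be at 0.72 in experiment 1 and -0.47 in experiment 2 on this scale. Without the sucrose array of experiment 1, 4 members lay above 0 and the median was -0.09. Members higher in both experiments numbered 3 (RALFL31, RALFL32 and RALFL33), against 24.1% of all probe sets. On the centred scale 2 were higher without overlap (RALFL31 and RALFL33), against 11.2%. No member was lower without overlap, against 7.7%, or lower in both experiments, against 16%.

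The comparison of anoxia with sucrose against air combined both treatments. RALFL24 was lower than in air here too, with 69.8 and 66.5 against 436.0 and 119.5, and RALFL33 lay nearer its air level than it did under anoxia alone. The comparisons with air share the air arrays, and both comparisons of the sucrose group share its arrays, so they are not independent. In limma 0 of 7 tested members passed, against 0.251% of all tested probe sets. An unadjusted p under 0.05 was seen for 2 of 7 (RALFL24 and RALFL27), against 6.75%. With the experiment as a block 1 passed, RALFL24, against 3.31% of all tested probe sets in either direction and 1.69% lower.

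RALFL24 was at -1.44 ± 0.51 (SE, limma adjusted p = 0.501), or 2.71-fold lower, with -1.66 and -1.22 by experiment. The block gave a limma adjusted p of 0.0350. When the sucrose array of experiment 1 was left out as well the adjusted p was 0.375, with a log2 difference of -1.56 ± 0.50, against -1.44 ± 0.37 (SE) with all arrays and the block. RALFL22 was at -0.74 ± 0.52 (SE), with -0.83 and -0.65, and its sucrose signals of 418.4 and 762.5 lay below both air signals. RALFL33 was at -0.51 ± 0.58 (SE), with -0.21 and -0.80, and its groups overlapped on the centred scale. In signal before centring, 717.3 and 633.0 with sucrose lay below both air signals of 1406.6 and 780.7. RALFL24 and RALFL22 were the 2 members that were lower without overlap on the centred scale, against 10.9% of all probe sets.

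On the higher side RALFL27 was at 0.95 ± 0.42 (SE), with 31.0 and 17.1 with sucrose against 13.3 and 0.8 in air. RALFL25 was at 0.77, with 6.7 and 17.3 against 2.0 and 1.0. These 2 dim members were higher without overlap on the centred scale, against 18.5% of all probe sets. RALFL32 (0.54 ± 0.58, SE), RALFL34 (0.28 ± 0.60, SE) and RALFL31 (0.12 ± 0.44, SE) overlapped with air on that scale. In signal RALFL32 read 1175.8 and 772.6 with sucrose, above both air signals of 753.7 and 658.2. Over all 11, 8 members lay above 0 and 3 below, against 62% and 38% of all probe sets. RALFL25, RALFL27, RALFL31 and RALFL34 were higher in both experiments (4 of 11, against 30.4%), and RALFL22, RALFL24 and RALFL33 lower in both (3 of 11, against 17.3%). The median was 0.28, with 0.77 in experiment 1 and -0.28 in experiment 2, beside 0.11 over all probe sets. It was -0.28 without the sucrose array of experiment 1. In this comparison a signal of 0 on every array would give 0.74 in experiment 1 and -0.51 in experiment 2.

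Genes of RALF perception and processing were read from 3 lists. Of 16 receptors and co-receptors 7 had a matched probe set and 3 were tested: FER, the FERONIA receptor kinase, THE1, and CVY1, a related receptor kinase. All 3 had lower signals under anoxia than in air in both experiments. They were the only ones of the 7 matched genes to do so, and 23.1% of all probe sets, dim ones included, did. In limma 0 of the 3 passed, against 0.232% of all tested probe sets, and 2 had an unadjusted p under 0.05, against 6%. With the block 1 passed, THE1, against 2.54%. Of 11 LRX genes 8 were matched and 4 tested, and of 16 processing and signalling genes 2 were matched and tested, with none passing in any of the 3 comparisons by either fit. An unadjusted p under 0.05 was seen for 0 of these 6 in each comparison.

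THE1 read 102.7 and 84.1 under anoxia, against 397.1 and 278.4 in air. Its log2 difference was -1.69 ± 0.45 (SE), -1.78 and -1.59 by experiment, with a limma adjusted p of 0.302 without and 0.0221 with the block, and 0.0407 with the block when the sucrose array of experiment 1 was left out. With sucrose THE1 read 36.7 and 162.1, the lower signal on the array with the high 3' over 5' ratios. Its log2 difference from air was -1.73 ± 0.45 (SE), -2.23 and -1.23 by experiment, with a limma adjusted p of 0.243, or 0.0148 with the block. Without that array the block gave -1.28 ± 0.43 (SE) and an adjusted p of 0.437. RALFL34, whose product is a ligand of THE1, differed by 0.17 between anoxia and air.

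CVY1 read 21.7 and 25.1 under anoxia, against 57.1 and 64.5 in air (-0.97 ± 0.34, SE), and 17.0 and 32.8 with sucrose. FER read 227.5 and 437.5 under anoxia, against 542.4 and 708.6 in air (-0.94 ± 0.80, SE). With sucrose FER read 61.1 and 752.6, so that its lowest and its highest signal were both in the sucrose group, the lowest on the array with the high 3' over 5' ratios. Among the wall partners, LRX10 read 159.0 and 70.5 under anoxia, against 30.4 and 77.7 in air, higher in experiment 1 only. LRX4, LRX5 and LRX6 were between -0.19 and 0.31 in this comparison. S1P, the protease of RALF23 processing, read 89.5 and 70.1 under anoxia, against 57.1 and 71.4 in air (0.25 ± 0.40, SE). MRI, a kinase of pollen tubes and root hairs, was at -0.02 ± 0.37 (SE). It was dim, with signals between 8.9 and 18.2 and 3 of the 6 arrays below 16.

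**Figure D3:**
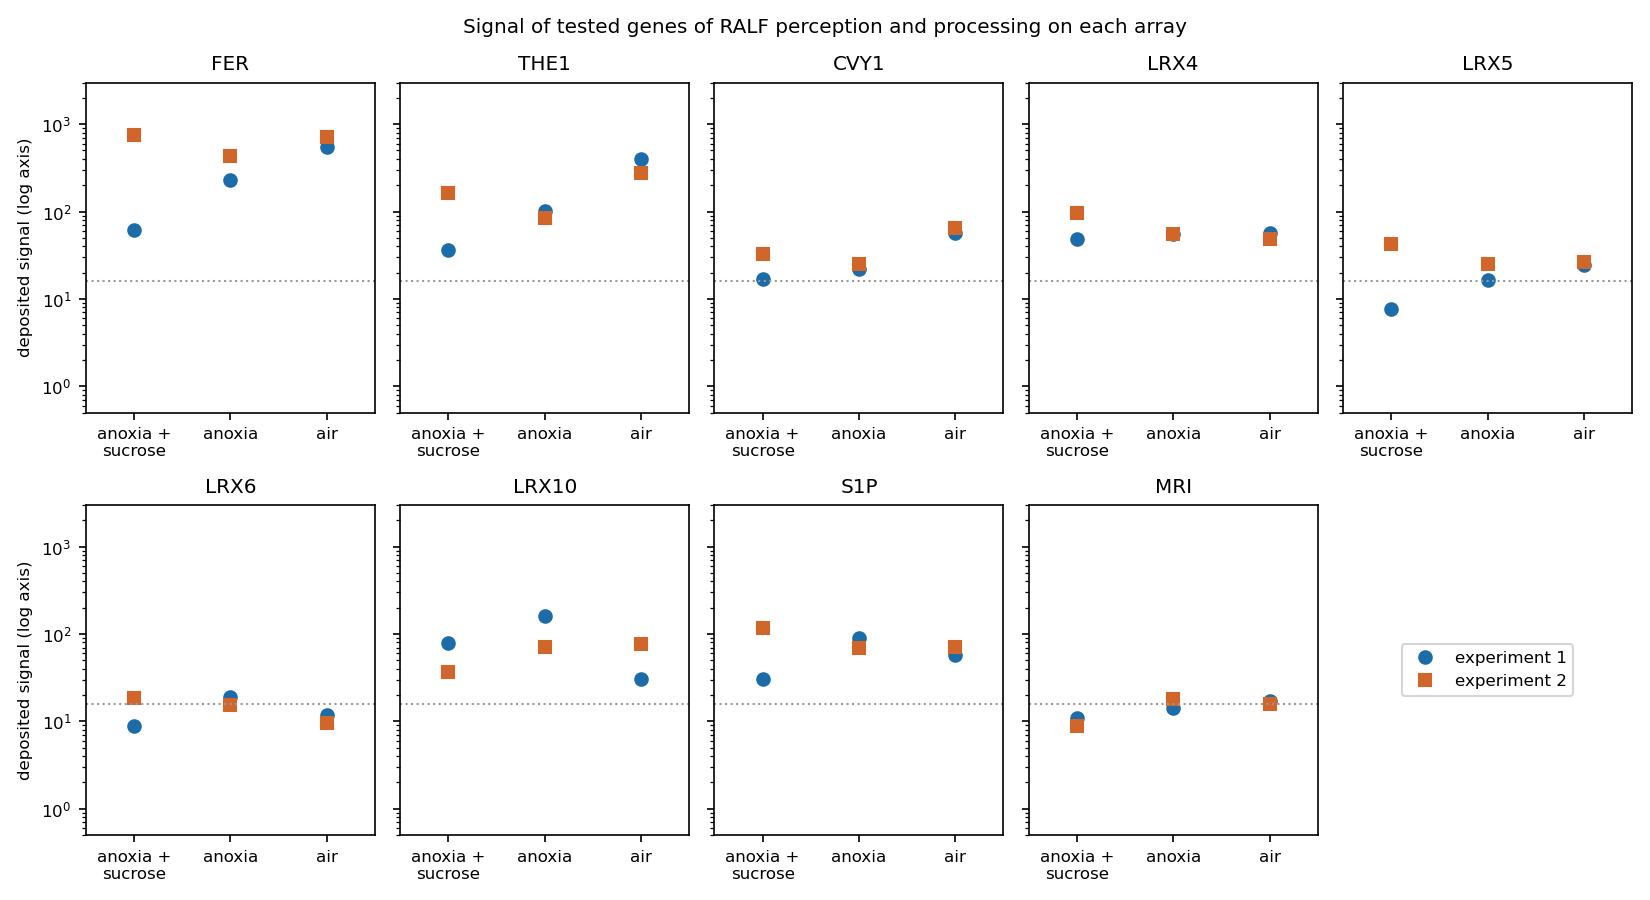
Deposited signal (log axis) of the 9 tested genes of RALF perception and processing on every array, by group, with circles for experiment 1, squares for experiment 2 and a dotted line at 16. THE1, CVY1 and FER have both anoxia signals below both air signals, although FER overlaps on the centred scale. FER spreads from 61.1 to 752.6 within the sucrose group.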

How the data were processed

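Per the labels, targets were made from about 10 µg of total RNA by Affymetrix procedures. The deposited values are intensity values, 1 per probe set, and how the authors computed and scaled them is not given in the sources used here. After removal of 64 controls, log2(signal + 16) was taken and the median of every array set to 0. From the 30th percentile of mean level upwards, 15922 of 22746 probe sets were tested with limma (version 3.58.1, R 4.3.3), 1 coefficient per group over 6 arrays, with an intensity trend, two-sided, and Benjamini-Hochberg adjustment over all tested probe sets (threshold 0.05, 3 residual degrees of freedom, prior 6.97). The fit without the block was run on simulated data with independent noise of a common spread and no experiment effect. The fit with the block was not simulated. The number of arrays limits the precision.

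The experiment numbers in the titles were taken to pair the arrays. Replicate differences correlated at r = 0.383 (anoxia and air), 0.392 (sucrose and air) and 0.562 (sucrose and anoxia) across tested probe sets, which are not independent. The fit with this block has 2 residual degrees of freedom and a prior of 17, so its p-values rest mostly on the spread shared across probe sets.

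Of the 11 members, 10 were matched to RefSeq by gene number and RALFL22 by symbol, and all 11 probe set names carry the plain _at suffix. Members and lists were chosen with earlier results of these data known. All members that passed the filter are named, with at most 4 tested genes per list by the size of the difference between anoxia and air. Alternatives were other added constants (1 and 64), another filter (none, or from the 50th percentile), quantile normalization, scaling to a common 2% trimmed mean, no trend, only the arrays compared, the block, a threshold of 0.01 and leaving out each array. The block without the sucrose array of experiment 1 was added after seeing the data.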

Additional observations from a re-analysis of the deposited data

How the results depend on the processing

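No tested member passed under any alternative without the block. With the experiment as a block the calls were 2 (anoxia against air), 0 (sucrose against anoxia) and 1 (sucrose against air), the medians stayed at -0.16, 0.38 and 0.28, and without the sucrose array of experiment 1 as well all 3 counts were 0. The block changed no other call of a member. Among the other listed genes it added THE1 in both comparisons with air, and the called low-oxygen check genes numbered 6 with it against 5 without (anoxia against air) and 6 against 3 (sucrose against air). Why calls were lost without the sucrose array of experiment 1 was not tested. Leaving out each array gave 0 calls in each comparison, with medians from -0.32 to -0.15 for anoxia against air, from -0.09 to 0.91 for sucrose against anoxia and from -0.28 to 0.80 for sucrose against air. Under other pseudocounts and scalings these medians lay from -0.26 to -0.08, 0.17 to 0.80 and 0.09 to 0.54.

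Directions that turned belonged to differences that had not passed, and in each case arrays were left out. Between anoxia and air RALFL32 ranged from -0.39 to 0.074 and RALFL34 from -0.30 to 0.64. Between sucrose and anoxia the ranges were -0.089 to 0.84 for RALFL22, -0.12 to 0.78 for RALFL24, -0.42 to 0.92 for RALFL27, -0.015 to 1.42 for RALFL32 and -0.43 to 0.64 for RALFL34. Between sucrose and air they were -0.40 to 0.64 for RALFL31, -0.17 to 1.26 for RALFL32 and -0.26 to 0.81 for RALFL34. With the block and without the sucrose array of experiment 1, RALFL27 was at -0.37 against anoxia, and RALFL31 at -0.12 and RALFL32 at -0.11 against air.

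Over all probe sets 37 were called between anoxia and air and 40 between sucrose and air. The counts were 2 and 14 with a pseudocount of 1, 82 and 99 with 64, 88 and 118 without the filter, 23 and 22 with quantile normalization, 24 and 28 with trimmed mean scaling, 14 and 20 without the trend, and 82 and 17 with only the arrays compared. They were 404 and 527 with the block, 277 and 66 with the block and without the sucrose array of experiment 1, 1 and 1 at a threshold of 0.01, and 0 to 81 and 0 to 71 leaving out an array. Sucrose against anoxia gave 0 in each, except 3 with the block.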

Other observations

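Genes of pollen RALF perception were dim in these seedlings, as were RALFL25 and RALFL26. The receptor kinase genes ANX1, ANX2, BUPS1 and BUPS2 had signals between 0.6 and 17.9 over the 6 arrays, and the pollen extensin genes LRX8, LRX9 and LRX11 between 0.7 and 16.5. LRX10, known from pollen as well, read between 30.4 and 159.0. Below the added constant of 16 or close to it, RALFL25 read 6.7 and 17.3 with sucrose under anoxia, 4.0 and 8.7 under anoxia and 2.0 and 1.0 in air, and RALFL26 read 4.1 and 2.7, 2.2 and 1.6, and 1.5 and 1.1 in the same groups.

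The genes most like RALFL24 over the 6 arrays, among 8730 other tested probe sets with a single gene, were AT2G32380 (Pearson r = 0.994), AT4G39320 (r = 0.986) and AT5G06800 (r = 0.984). These values are the highest of 8730 and describe 6 arrays of 3 groups. AT2G32380 read 68.1 and 45.3 under anoxia, against 147.1 and 66.8 in air, and AT5G06800 read 39.2 and 22.2, against 127.7 and 53.4. AT4G39320 read below 16 on 4 of the 6 arrays.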
